A study of Caenorhabditis elegans with 12 samples.

Results

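The mitochondrial unfolded protein response of *C. elegans* was followed through 10 genes, taken by name from the 46926 features of the deposited table: *hsp-6*, *hsp-60*, *dnj-10*, *timm-23*, *clpp-1*, *lonp-1*, *haf-1*, *ubl-5*, *dve-1* and *atfs-1*. All 10 were found in all 12 libraries, and all 10 passed the filter on low counts. They lie on chromosomes I (*timm-23*, *lonp-1* and *ubl-5*), II (*clpp-1*), III (*hsp-60* and *dnj-10*), IV (*haf-1*), V (*hsp-6* and *atfs-1*) and X (*dve-1*) of WBcel235. The chaperone genes *hsp-60* (WBGene00002025) and *hsp-6* (WBGene00002010) span chromosome III, 1619742 to 1625803, plus strand, and chromosome V, 4824124 to 4826760, minus strand, and *atfs-1* (WBGene00013878) spans chromosome V, 14193663 to 14197700, plus strand. All 10 genes are annotated as protein-coding, and counts were per gene. The series compared worms of N2, the wild-type laboratory strain, on 2 diets. In 6 libraries the worms were fed the Δ*lpp* mutant of *E. coli*, and in the other 6 they ate BW25113, which has an intact *lpp*. Lpp is an abundant lipoprotein that ties the bacterial outer membrane to the cell wall. RNA came from whole worms, so that every value averages over tissues, and a smaller number of cells of a type cannot be told apart from less RNA per cell. How old the worms were when RNA was taken is not given in the sources used here, and nothing states that the libraries of a group came from separate cultures, so the p-values measure only the spread between these libraries.

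The mitochondrial unfolded protein response is a transcriptional program that cells turn on when proteins misfold or fail to be imported in mitochondria. In *C. elegans* the transcription factor ATFS-1 is normally carried into mitochondria and degraded there, and it goes to the nucleus when import is impaired. There it acts with the homeodomain protein DVE-1 and the ubiquitin-like protein UBL-5 on genes of mitochondrial chaperones and proteases. Transcript levels of *hsp-6* and *hsp-60* are the usual readouts of the response in worms.

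Total counts were 21146884 to 23563531 in the Δ*lpp* libraries and 20254430 to 24442423 in the BW25113 libraries, and ribosomal RNA took 0.408% to 0.567% of the counts with Δ*lpp* and 1.24% to 2.69% with BW25113. The scaling factors of TMM, a method that centres the libraries on the bulk of their genes, lay between 1.08 and 1.27 with Δ*lpp* and between 0.794 and 0.988 with BW25113. With TMM the median log2 fold change (Δ*lpp* over BW25113 throughout) of the 15266 tested genes was 0.05, and with the library total alone it was 0.50, a shift of 0.45. Levels are therefore given as CPM (counts scaled to a common total) with TMM and, where the direction or the call depends on it, also with library size only and as TPM, which corrects for gene length. Markers of cell types differed between the diets. Lower with Δ*lpp* were 6 of the 6 tested sperm genes (of 8, 1 of them at 0 in every library), 6 of 7 epidermis and cuticle genes, 5 of 5 body wall muscle genes and 4 of 4 intestine genes. The summed TPM of the sperm genes was 3.05 to 6.51 with Δ*lpp* and 159.3 to 234.4 with BW25113, that of the cuticle genes 882.5 to 1207 with Δ*lpp* and 2601 to 2838 with BW25113, that of the muscle genes 1358 to 1563 with Δ*lpp* and 2037 to 2658 with BW25113, and that of the intestine genes 639.7 to 727.0 with Δ*lpp* and 975.3 to 1197 with BW25113. All 7 neuron and cilium genes were higher (summed TPM 314.4 to 377.2 with Δ*lpp* and 173.7 to 184.4 with BW25113). Of 9 oocyte and germ line genes 2 were higher and 1 lower (1763 to 2500 with Δ*lpp* and 861.6 to 1534 with BW25113), of 6 yolk genes 2 were higher and 3 lower (7876 to 13480 with Δ*lpp* and 4314 to 8498 with BW25113), and of 8 embryo genes 4 were tested and 2 higher (14.54 to 20.07 with Δ*lpp* and 8.49 to 11.31 with BW25113). These marker counts are with TMM, at an adjusted p under 0.05. Of all tested genes, 32.3% were lower and 32.9% higher by the same rule. Of the 9 oocyte and germ line genes, 7 were higher and 0 lower with library size only, against 59.3% and 19.8% of all tested genes. On the log2(TPM + 1) scale 9 were higher, against 65.9%. The list median was 0.68 and 0.86 under these 2 settings, beside 0.50 and 0.51 for all genes. The part of these differences in the results below was not tested.

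The chaperone readouts of the response were lower in worms on Δ*lpp*, and *hsp-60* was lower by more than *hsp-6*. With TMM scaling, 7 of the 10 genes were lower at an adjusted p under 0.05, against 32.3% of all tested genes, and 0 were higher, against 32.9% (edgeR's quasi-likelihood test, Benjamini-Hochberg adjustment). At an unadjusted p under 0.05, 8 were lower and 0 higher. The share of all genes by that looser rule was not counted, but it is at least the 32.3% lower and 32.9% higher after adjustment. DESeq2 gave 8 lower and 0 higher after adjustment, where 5209 of all 15266 tested genes were lower and 4848 higher. Only *hsp-60* also passed a log2 fold change of 1 and was called lower, 1 of 10 genes against 15.6% of all genes, and 0 of 10 were called higher, against 12.1%. The median log2 fold change of the 10 genes was -0.41, beside 0.05 for all tested genes, whose quartiles were -0.53 and 0.54. In 5 of the 10 genes the CPM of the groups did not overlap, against 41.5% of all genes.

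**Figure D1:**
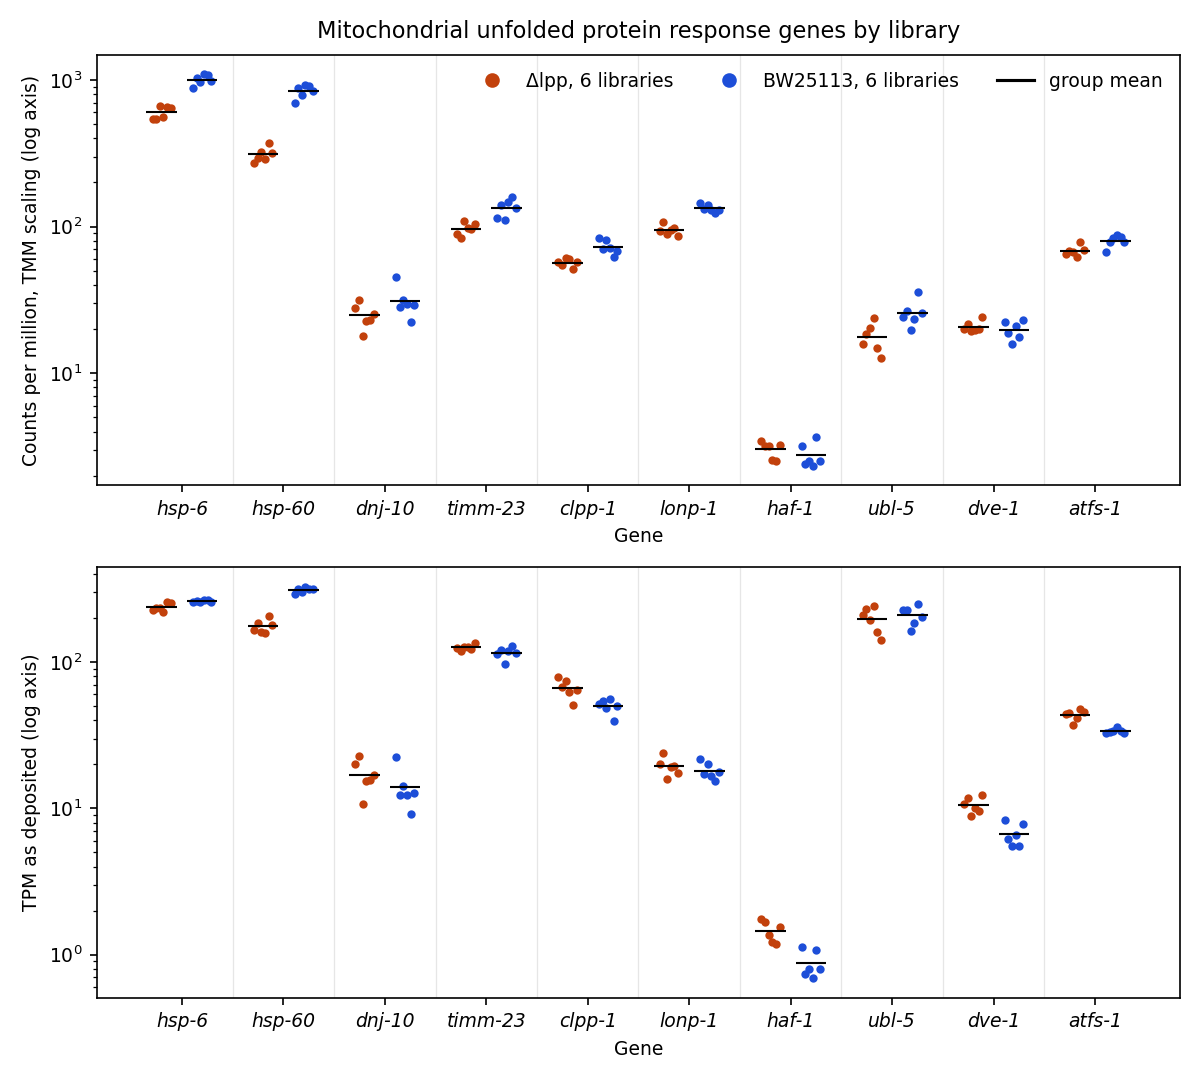
Level of each of the 10 genes in every library, as CPM with TMM scaling (upper panel) and as TPM (lower panel), both on log axes; each point is 1 library and each line a group mean (6 libraries each). The points for *hsp-60* lie lower with Δ*lpp* in both panels, while those for *atfs-1* overlap in the upper panel and are separate, higher with Δ*lpp*, in the lower one.

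*hsp-60* encodes the mitochondrial chaperonin, the chamber in which imported proteins fold. Its level was 270.6 to 371.1 CPM with a median of 304.7 in Δ*lpp* libraries, and 701.1 to 921.2 CPM with a median of 859.7 in BW25113 libraries (TMM scaling). Every Δ*lpp* library lay below every BW25113 library. The log2 fold change was -1.44 (standard error 0.098, edgeR adjusted p = 3.74e-10), which leaves a mean level of 36.9% of that with BW25113. The direction did not rest on the scaling, since the log2 fold change was -0.99 with library size only (edgeR adjusted p = 3.42e-10) and -0.82 on the log2(TPM + 1) scale (limma adjusted p = 8.86e-08). As TPM, *hsp-60* averaged 176.0 ± 19.05 with Δ*lpp* and 310.9 ± 11.55 with BW25113 (SD, n = 6 each), again without overlap.

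*hsp-6* encodes the mitochondrial Hsp70, which pulls proteins through the inner membrane and folds them in the matrix. Its level was 537.8 to 664.0 CPM with a median of 603.1 in Δ*lpp* libraries, and 876.6 to 1088.6 CPM with a median of 1001.4 in BW25113 libraries. These ranges were separate too, with a log2 fold change of -0.74 (standard error 0.0915, edgeR adjusted p = 1.2e-06). The size of the difference depended on the scaling more than that of *hsp-60*. It was -0.29 with library size only (edgeR adjusted p = 3.12e-05) and -0.13 on the log2(TPM + 1) scale (limma adjusted p = 0.0279). As TPM the groups barely separated, since the highest Δ*lpp* library had 255.5 TPM and the lowest BW25113 library 255.6 TPM.

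*dnj-10* encodes a DnaJ-type co-chaperone of mitochondria, which assists the Hsp70. It had 17.9 to 31.7 CPM with a median of 24.2 in Δ*lpp* libraries and 22.4 to 45.2 CPM with a median of 29.5 in BW25113 libraries, and the ranges overlapped. Its log2 fold change, -0.33 (standard error 0.153), did not pass the test (edgeR adjusted p = 0.0689). It passed with DESeq2 (-0.35, adjusted p = 0.0393) and when Δ*lpp* replicate 2 (-0.41) or BW25113 replicate 5 (-0.37) was left out of the edgeR fit. It was 0.12 with library size only (edgeR adjusted p = 0.606). The highest value was that of BW25113 replicate 1, with 980 counts where the other libraries of that group had 434 to 608. Without that library the log2 fold change was -0.15 (edgeR adjusted p = 0.325).

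Within a library, the ratio of 2 genes does not depend on how libraries are scaled to each other, and it was used to ask whether the chaperones differed by the same amount. The ratio of *hsp-6* to *hsp-60* counts was 1.939 ± 0.107 in Δ*lpp* libraries and 1.195 ± 0.034 in BW25113 libraries (SD, n = 6 each). It was 1.77 to 2.05 with Δ*lpp* and 1.16 to 1.25 with BW25113, so all 6 Δ*lpp* libraries exceeded all 6 BW25113 libraries. The difference on the log2 scale was 0.70 (exact permutation test, two-sided; p = 0.00216, a lower limit set by the 924 arrangements, and 0.00649 after Benjamini-Hochberg adjustment over the 6 ratios computed). From the deposited TPM, which takes length into account, the ratio was 1.36 with Δ*lpp* and 0.837 with BW25113. By TPM *hsp-6* was the higher of the pair with Δ*lpp* and *hsp-60* with BW25113, while by counts *hsp-6* was higher on both diets. The annotated exons cover 2460 bases of *hsp-6* and 2121 of *hsp-60*. The lengths used for TPM are not given in the sources used here, so the order of the pair by TPM rests on them. The ratio of *hsp-6* to *dnj-10* was 25.3 ± 7.11 with Δ*lpp* and 34.2 ± 9.50 with BW25113, a difference within the spread of the libraries (exact permutation p = 0.113, adjusted p = 0.113). Without BW25113 replicate 1 its log2 difference was -0.58 in place of -0.43, and it passed (exact permutation, adjusted p = 0.039).

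The 2 chaperones were then set against a chaperone of the cytosol and a subunit of ATP synthase. The ratio of *hsp-6* to *hsp-1*, which encodes the constitutive cytosolic Hsp70, was 0.1995 ± 0.00918 with Δ*lpp* and 0.217 ± 0.0146 with BW25113, with overlapping ranges (log2 difference -0.12, exact permutation p = 0.0368, adjusted p = 0.0736). It passed without Δ*lpp* replicate 6 (-0.14, adjusted p = 0.0346) and without BW25113 replicate 3 (-0.15, adjusted p = 0.00866). The ratio of *hsp-60* to *atp-2*, which encodes the ATP synthase beta subunit, was 0.144 to 0.175 with Δ*lpp* and 0.185 to 0.201 with BW25113 (log2 difference -0.30, exact permutation p = 0.00216, adjusted p = 0.00649). *hsp-60* was therefore lower with Δ*lpp* by more than *atp-2*, itself lower by 1.14 on the log2 scale with TMM scaling (standard error 0.101, edgeR adjusted p = 1.43e-08).

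**Figure D2:**
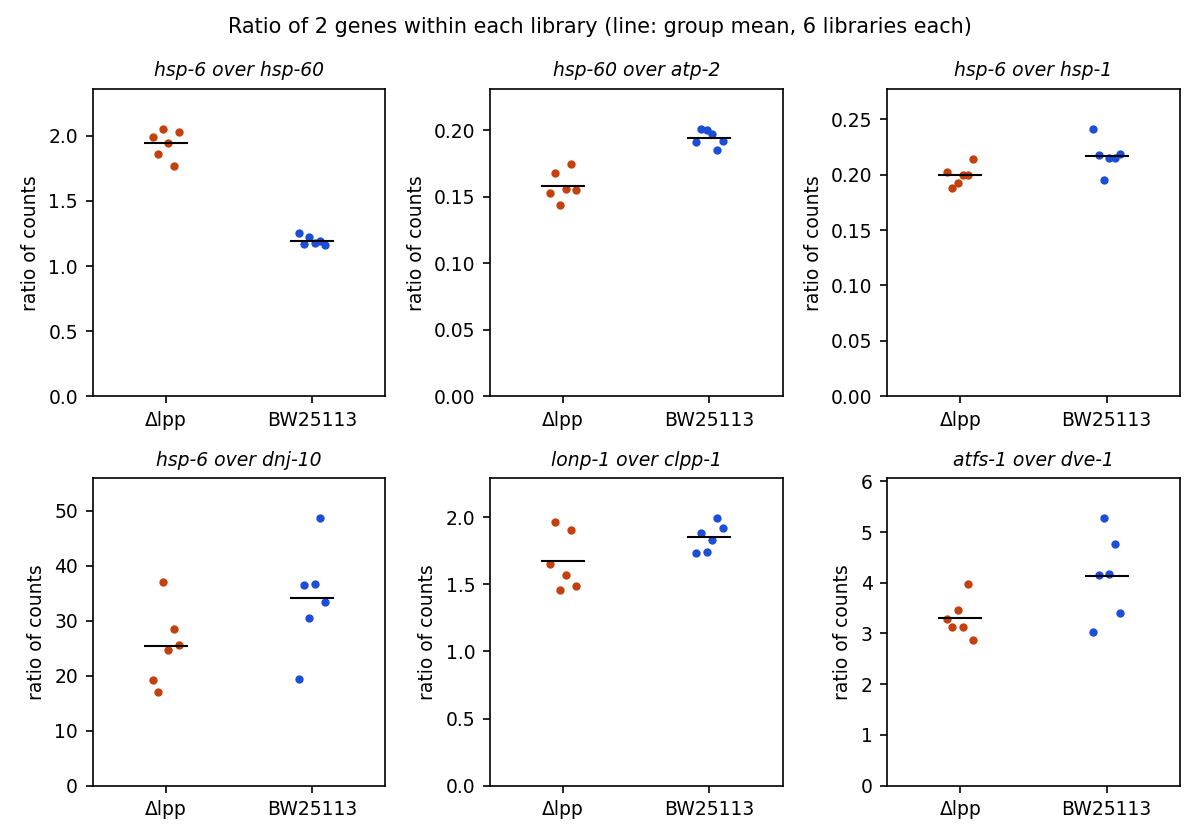
Ratio of the counts of 2 genes within each library, 1 point per library and a line at the group mean, with axes starting at 0. The 2 ratios with separate groups are *hsp-6* over *hsp-60* (1.77 to 2.05 with Δ*lpp*, 1.16 to 1.25 with BW25113) and *hsp-60* over *atp-2* (0.144 to 0.175 with Δ*lpp*, 0.185 to 0.201 with BW25113), and the groups of the other 4 overlap.

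The import and protease genes were lower with TMM scaling, but not with library size only or as TPM. *timm-23* encodes the channel of the inner membrane through which matrix proteins enter. It had 83.5 to 109.98 CPM with a median of 96.8 with Δ*lpp* and 110.5 to 158.0 CPM with a median of 137.2 with BW25113, which left a narrow gap between the groups (log2 fold change -0.47, standard error 0.0988, edgeR adjusted p = 0.000418). Its log2 fold change was -0.02 with library size only (edgeR adjusted p = 0.826), and on the log2(TPM + 1) scale it was 0.12 and did not pass.

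*lonp-1* encodes the Lon protease, which degrades damaged matrix proteins. It had 85.7 to 107.0 CPM with a median of 93.9 in Δ*lpp* libraries and 123.9 to 144.9 CPM with a median of 130.8 in BW25113 libraries, without overlap (log2 fold change -0.50, standard error 0.0767, edgeR adjusted p = 1.67e-05). *clpp-1* encodes the proteolytic subunit of the ClpXP protease, whose peptides take part in signalling of the response. It had 51.3 to 61.0 CPM with a median of 57.2 with Δ*lpp* and 62.3 to 83.5 CPM with a median of 70.4 with BW25113 (log2 fold change -0.35, standard error 0.086, edgeR adjusted p = 0.00159). Neither passed with library size only: *lonp-1* was at -0.05 (edgeR adjusted p = 0.65) and *clpp-1* at 0.09 (edgeR adjusted p = 0.437). On the log2(TPM + 1) scale *clpp-1* was higher with Δ*lpp*, by 0.40 (limma adjusted p = 0.00374). For this gene the deposited TPM did not follow the counts, as 1 CPM by library size corresponded to 0.862 to 1.12 TPM in Δ*lpp* libraries and 0.628 to 0.985 TPM in BW25113 libraries. The ratio of *lonp-1* to *clpp-1* within a library was 1.67 ± 0.213 with Δ*lpp* and 1.85 ± 0.102 with BW25113 and did not differ beyond the spread (log2 difference -0.15, exact permutation p = 0.0866, adjusted p = 0.104). From TPM in place of counts the log2 difference was -0.31 (exact permutation p = 0.0693, adjusted p = 0.0831).

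None of the 4 signalling genes gave the same result at an adjusted p under 0.05 under all 3 scalings. *atfs-1* encodes the transcription factor that senses the state of import. Its level was 61.9 to 79.1 CPM with a median of 67.5 with Δ*lpp* and 67.6 to 87.4 CPM with a median of 80.7 with BW25113, so the groups overlapped. With TMM its log2 fold change was -0.22 (standard error 0.0837, edgeR adjusted p = 0.0274). This result was lost without Δ*lpp* replicate 1 (-0.20) or replicate 4 (-0.19) and without BW25113 replicate 4 (-0.17) or replicate 5 (-0.18). It was also lost with upper quartile scaling (-0.13, edgeR adjusted p = 0.112). With library size only, *atfs-1* was higher on Δ*lpp*, at 73.3 to 85.5 CPM against 66.7 to 69.96 CPM on BW25113 (log2 fold change 0.23, edgeR adjusted p = 0.00175), without overlap. As TPM the values were 36.9 to 47.8 with Δ*lpp* and 32.5 to 35.8 with BW25113 (0.36 on the log2(TPM + 1) scale, limma adjusted p = 0.000298). Thus *atfs-1* passed the test in opposite directions under different scalings.

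*dve-1*, the homeodomain partner of ATFS-1, had 19.4 to 24.3 CPM with a median of 19.9 with Δ*lpp* and 15.8 to 22.97 CPM with a median of 19.9 with BW25113, and its log2 fold change of 0.08 (standard error 0.108) did not pass the test (edgeR adjusted p = 0.559). *haf-1* encodes a peptide transporter of the mitochondrial inner membrane. It had only 64 to 93 counts in the Δ*lpp* libraries and 38 to 71 in the BW25113 libraries, where 38 counts carry a 95% exact Poisson interval of 26.9 to 52.2 and 93 counts one of 75.1 to 114.0, counting error only. Its log2 fold change of 0.13 (standard error 0.164) did not pass either (edgeR adjusted p = 0.515). With single libraries left out, *haf-1* lay between 0.08 (without BW25113 replicate 2) and 0.25 (without BW25113 replicate 5) and *dve-1* between 0.01 (without BW25113 replicate 3) and 0.14 (without BW25113 replicate 1), and neither passed in any of the 12 fits. Scaled by library size only, both were higher on Δ*lpp*, *dve-1* by 0.52 (edgeR adjusted p = 0.00222) and *haf-1* by 0.58 (edgeR adjusted p = 0.00829), close to the median of 0.50 for all genes under that scaling. The exons of *haf-1* share 64 bases with *C30H6.9* on the other strand, which averaged 612.8 counts, and whether counting used strand is not given in the sources used here, so the source of the *haf-1* reads in that stretch is uncertain.

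*ubl-5*, which encodes the ubiquitin-like partner of DVE-1, had 12.8 to 23.8 CPM with a median of 17.2 with Δ*lpp* and 19.8 to 35.9 CPM with a median of 24.96 with BW25113. The groups overlapped, and the log2 fold change was -0.55 (standard error 0.154, edgeR adjusted p = 0.00442). It was -0.09 with library size only (edgeR adjusted p = 0.617). The ratio of *atfs-1* to *dve-1* within a library was 3.31 ± 0.378 with Δ*lpp* and 4.13 ± 0.830 with BW25113 (log2 difference -0.30, exact permutation p = 0.0519, adjusted p = 0.0779). Without BW25113 replicate 1 it was -0.39 and passed (exact permutation, adjusted p = 0.026).

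Across the scalings, *hsp-6* and *hsp-60* were the 2 members lower at an adjusted p under 0.05 in every one of the 9 alternatives run and with each of the 12 libraries left out. With library size only, 2 of the 10 genes were lower (*hsp-6* and *hsp-60*), against 19.8% of all tested genes, and 3 were higher (*haf-1*, *dve-1* and *atfs-1*), against 59.3%. On the log2(TPM + 1) scale the same 2 were lower, against 17.2%, and 4 were higher, those 3 with *clpp-1*, against 65.9%. Set against the median of all tested genes, which takes up the shift between TMM and library size but not that to TPM, *hsp-60* stood at -1.49 with TMM scaling, *hsp-6* at -0.79, *ubl-5* at -0.60, *lonp-1* at -0.55, *timm-23* at -0.52, *clpp-1* at -0.40, *dnj-10* at -0.38 and *atfs-1* at -0.27. *dve-1* at 0.03 and *haf-1* at 0.08 lay next to that median. The same differences on the log2(TPM + 1) scale were -1.33 for *hsp-60*, -0.64 for *hsp-6*, -0.61 for *ubl-5*, -0.42 for *lonp-1*, -0.38 for *timm-23*, -0.11 for *clpp-1*, -0.22 for *dnj-10*, -0.15 for *atfs-1*, 0.09 for *dve-1* and -0.12 for *haf-1*. The median of the members minus that of all genes was -0.46 under both TMM and library size scaling and -0.30 on the log2(TPM + 1) scale. In the order of all tested genes from the lowest log2 fold change to the highest, *hsp-60* was at the 11.5th percentile and *hsp-6* at the 19.9th, so many genes were lower by more.

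**Figure D3:**
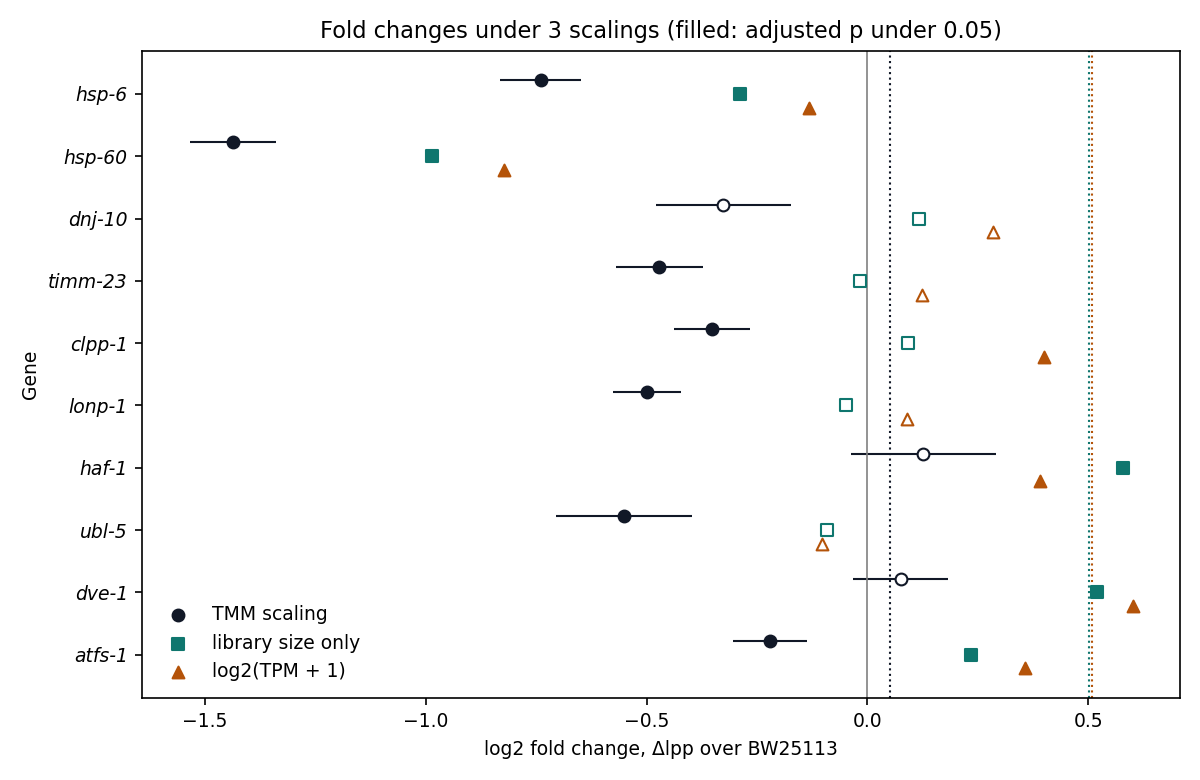
log2 fold change of each gene, Δ*lpp* over BW25113, with TMM scaling (circles, with the standard error), with library size only (squares) and on the log2(TPM + 1) scale (triangles); filled symbols passed an adjusted p under 0.05, and dotted lines mark the median of all tested genes under each scaling. *hsp-6* and *hsp-60* are filled and left of 0 under all 3, while *atfs-1* is filled at -0.22 with TMM and at 0.23 and 0.36 with the others.

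As TPM, which compares genes per length, the order of the levels with Δ*lpp* was *hsp-6* (mean 237.3), *ubl-5* (195.8), *hsp-60* (176.0), *timm-23* (126.1), *clpp-1* (66.4), *atfs-1* (43.5), *lonp-1* (19.3), *dnj-10* (16.96), *dve-1* (10.6) and *haf-1* (1.46). With BW25113 it was *hsp-60* (310.9), *hsp-6* (260.0), *ubl-5* (208.7), *timm-23* (116.0), *clpp-1* (49.9), *atfs-1* (33.6), *lonp-1* (18.1), *dnj-10* (13.9), *dve-1* (6.65) and *haf-1* (0.873). With Δ*lpp*, neighbours in this order overlapped among the first 3 and among *lonp-1*, *dnj-10* and *dve-1*. With BW25113 only *lonp-1* and *dnj-10* overlapped, and *hsp-60* stood clear of *hsp-6*. Both orders rest on the lengths used for the deposited TPM, which are not given. For *ubl-5*, with 327 annotated exon bases, 1 CPM by library size corresponded to 8.44 to 10.5 TPM with Δ*lpp*. For *timm-23*, with 865 exon bases, it was 1.06 to 1.19 TPM with Δ*lpp*, a wider gap than these exon lengths give. The place of *ubl-5*, and the order of *hsp-60* and *hsp-6*, are therefore uncertain. The summed level of the 3 chaperones was 394.8 to 478.5 TPM with Δ*lpp* and 572.0 to 602.0 TPM with BW25113. That of the 2 proteases was 69.9 to 98.8 TPM with Δ*lpp* and 54.8 to 73.5 TPM with BW25113, with some overlap.

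Over the 12 libraries, the pairs of members with the most similar profiles were *clpp-1* with *lonp-1* (root mean square difference of centred log2 CPM 0.149) and *hsp-6* with *timm-23* (0.167). Of the 8129 genes whose mean reached 10 CPM, those closest to *hsp-60* were *glh-1* (0.0778), *calu-1* (0.0799) and *ZK1321.4* (0.0831), where the median gene differed from it by 0.755. The closest to *hsp-6* were *ogdh-1* (0.0512), *eif-2alpha* (0.0538) and *cif-1* (0.0556), against a median of 0.448. The closest to *atfs-1* were *clh-5* (0.0396), *rde-12* (0.0404) and *T24H10.1* (0.0451), against a median of 0.306. These distances are descriptions over libraries that share their scaling factors.

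Most genes of the other mitochondrial import and protease lists were lower with TMM scaling. Of 19 genes of protein import, 15 were lower and 0 higher (edgeR, adjusted p under 0.05), against 32.3% lower and 32.9% higher among all tested genes, with a median log2 fold change of -0.60 beside 0.05 for all genes. The lowest was *mppa-1*, a subunit of the peptidase that removes targeting sequences, at -1.31 (standard error 0.0885, adjusted p = 3.29e-10), and the highest was *immp-2*, an inner membrane peptidase subunit, at -0.16 (adjusted p = 0.207). Of 9 other proteases and assembly factors, 8 were lower and 0 higher (the same shares of all genes apply), with a median of -0.78. The called genes were *trap-1* at -1.32 (adjusted p = 1.82e-09) and *phb-1*, a prohibitin, at -1.13 (adjusted p = 2.47e-09). *trap-1* entered this list by name only. In worms that name belongs to a translocon-associated protein, so it should not be read as a mitochondrial factor. The counts and medians given for this list include it. *stl-1*, a stomatin-like gene, was the highest at 0.25 (adjusted p = 0.124). Scaled by library size only, 8 import genes were lower and 2 higher (median -0.15) and 5 of the 9 other factors were lower and 1 higher (median -0.33), beside 19.8% lower, 59.3% higher and a median of 0.50 for all genes.

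Genes of mitochondrial metabolism had a lower median than the members of the response. All 13 of them (subunits of the respiratory chain and ATP synthase, citric acid cycle enzymes and carriers) were lower with TMM scaling, against 32.3% of all tested genes. The groups overlapped in none of the 13, where 41.5% of all tested genes were without overlap. Called lower were 8 of them, against 15.6%, namely *atp-1*, *atp-2*, *cts-1*, *mdh-2*, *gas-1*, *sdha-1*, *cox-4* and *vdac-1*. Their median log2 fold change was -1.02, with *mdh-2*, malate dehydrogenase, the lowest at -1.29 (adjusted p = 3.71e-09) and *ant-1.1*, the ADP/ATP carrier, the highest at -0.52 (adjusted p = 0.000305). Of the 13, 12 were also lower with library size only (19.8% of all genes were), with a median of -0.57, and *ant-1.1* at -0.06 did not pass (edgeR adjusted p = 0.314).

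To describe the members relative to this mitochondrial background, each was divided within a library by the geometric mean of the 13 genes, a measure chosen after the values had been seen and given without a test. *hsp-60* was 48.6% to 59.1% of that mean with Δ*lpp* and 66.3% to 74.2% with BW25113, a log2 difference of -0.44. *hsp-6* was 97.8% to 105.0% of it with Δ*lpp* and 79.0% to 90.5% with BW25113, a difference of 0.26 in the opposite direction. The difference was positive for every other member as well, from 0.44 for *ubl-5* to 1.14 for *haf-1*, with separate groups for *timm-23* (0.53), *atfs-1* (0.78), *dve-1* (1.08) and *haf-1*. *hsp-60* was thus the 1 member of the 10 with a negative difference against these 13 genes. Against the 8 *cct* genes, which encode the related chaperonin of the cytosol, *hsp-60* was 80.4% to 90.9% with Δ*lpp* and 148.0% to 181.0% with BW25113 (log2 difference -1.03), and *hsp-6* was 154.0% to 177.0% with Δ*lpp* and 180.0% to 219.0% with BW25113 (-0.33). With this reference *ubl-5* (-0.147), *lonp-1* (-0.0892) and *timm-23* (-0.0546) were negative too. The remaining members were positive, from 0.065 for *clpp-1* to 0.551 for *haf-1*. Groups overlapped for all but *hsp-60* and *hsp-6*.

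Chaperones outside mitochondria were counted for comparison. Of 28 found, 27 were tested, and 19 were lower and 1 higher with TMM scaling, against 32.3% and 32.9% of all tested genes, with a median of -0.45. *pdi-2*, a protein disulfide isomerase of the endoplasmic reticulum, was the 1 gene called, at -1.30 (adjusted p = 1.72e-09), and *cnx-1*, calnexin, was higher at 0.28 (adjusted p = 0.0304). *hsp-4*, the endoplasmic reticulum Hsp70 that reports stress there and named here after its value was seen, was at -0.996 (standard error 0.114, adjusted p = 4.62e-07). *hsp-16.1* was listed at 0 in every library, and *hsp-16.48* and *hsp-16.49* had identical values, so these near-identical copies are uncertain. Under scaling by library size only, 5 of the 27 were lower and 7 higher, against 19.8% and 59.3% of all genes, with a median of 0.0018.

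Other regulators of the response did not move one way. Of 12, 3 were higher and 1 was lower with TMM scaling, against 32.9% and 32.3% of all tested genes, with a median of 0.01. The lower one was *zip-3*, a bZIP factor known to restrain the response, with 16.53 to 24.2 CPM with Δ*lpp* and 43.2 to 53.5 CPM with BW25113 (log2 fold change -1.196, standard error 0.101, edgeR adjusted p = 7.21e-09). It stayed lower with library size only, at -0.75 (adjusted p = 8.8e-07). The highest was *jmjd-3.1*, a histone H3 demethylase that promotes the response, with 25.1 to 31.2 CPM with Δ*lpp* and 14.9 to 21.2 CPM with BW25113 (0.66, standard error 0.109, adjusted p = 3.71e-05). By library size only, 10 of the 12 were higher, against 59.3% of all genes, and *zip-3* was the 1 lower, against 19.8%.

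Other genes listed as outputs of ATFS-1 moved in both directions. Of 10, 9 were tested, since *cyp-14A4* had at most 11 counts in any library, and 4 were called lower and 1 higher, against 15.6% and 12.1% of all tested genes. The lower ones were the lectin genes *clec-4* (log2 fold change -4.56, adjusted p = 1.42e-12) and *clec-65* (-1.35, adjusted p = 2.92e-09), the lysozyme gene *lys-2* (-3.39, adjusted p = 7.07e-10) and the glycolytic gene *gpd-2* (-1.74, adjusted p = 2.87e-10). *lys-2* had 65.5 to 170.3 TPM with Δ*lpp* and 523.2 to 784.9 TPM with BW25113. The higher one was the antimicrobial peptide gene *abf-2*, with 16 to 45 counts with Δ*lpp* and 5 to 10 with BW25113 (1.59, standard error 0.287, adjusted p = 9.69e-05). The median of the 9 was -0.20 with TMM scaling and 0.26 with library size only, where 4 of the 9 were lower and 4 higher at an adjusted p under 0.05, against 19.8% and 59.3% of all genes.

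**Figure D4:**
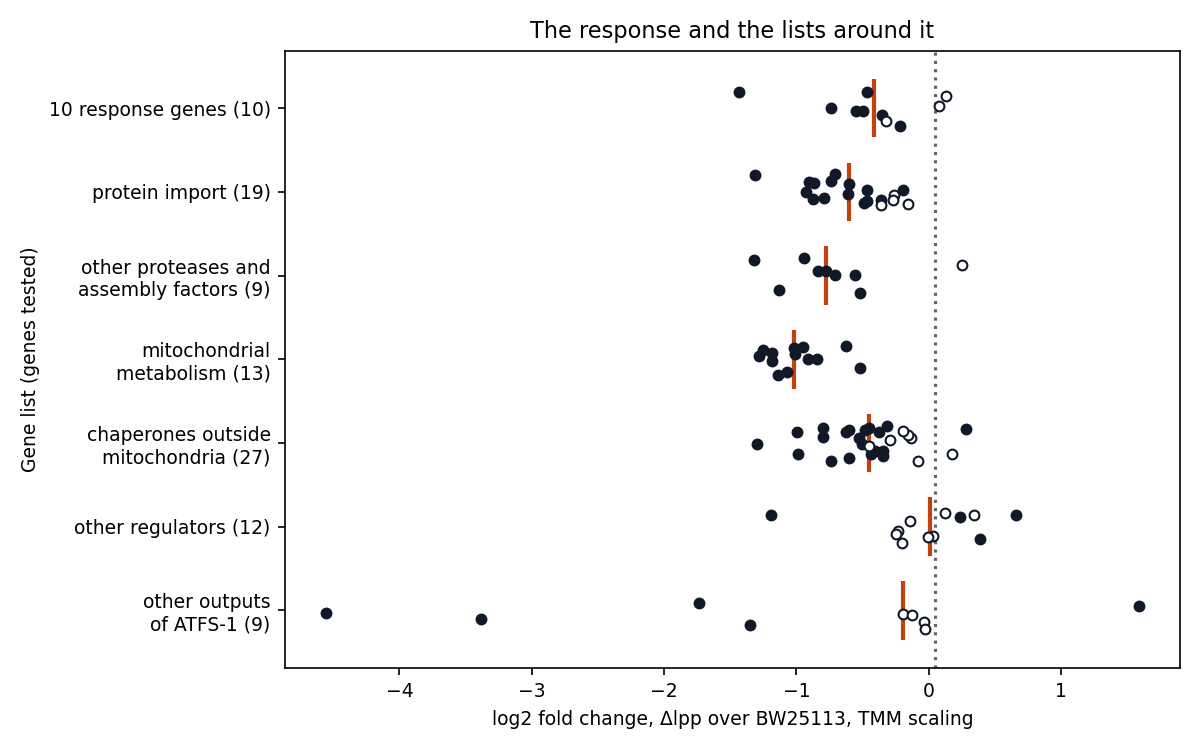
log2 fold change of each tested gene (points, filled at an adjusted p under 0.05, TMM scaling) in the 10 response genes and 6 lists around them; thick lines are list medians, and the dotted line is the median of all tested genes, 0.05. The median is -1.02 for mitochondrial metabolism, -0.41 for the response genes and 0.01 for the other regulators.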

How the data were processed

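RNA of whole N2 worms was sequenced after removal of ribosomal RNA. Reads were filtered by the authors (Seqtk) and aligned (HISAT2, with WBcel235 as the build in the submitters' processing notes), and the authors counted fragments per gene with Stringtie and deposited estimated counts, not normalized, of which 8.97% were not whole (tolerance 1e-06). The deposited TPM values were calculated by the authors with RNAnorm. Tool versions, the annotation release and strandedness are not given in the sources used here. The Ensembl annotation of WBcel235 holds all 46926 IDs. The authors' mean TPM columns were not used.

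Counts were rounded, filtered with filterByExpr (minimum count 10, minimum total 15), scaled by TMM and tested over 15266 genes with edgeR 4.0.16 (quasi-likelihood, robust, no covariate), with Benjamini-Hochberg adjustment over all tested genes. A call was an adjusted p under 0.05 with a log2 fold change past 1. Alternatives used DESeq2 1.42.0 and limma 3.58.1 on log2(TPM + 1) and log2(TPM + 0.1), where fold changes of low genes are understated, other scalings and filters, a replicate block and each library left out. Ratios within a library were compared over all 924 arrangements of the libraries with scipy 1.17.1. R 4.3.3, pandas 2.3.3, numpy 2.4.6, matplotlib 3.10.9 and Python 3.11.15 were used. The fits were also run on simulated counts in which few genes were changed, as many up as down. That check does not bear on the choice of scaling.

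Any 2 libraries of a group differed by more than sampling noise (chi-square per degree of freedom 4.4 to 70.5), so none was counted as a duplicate. The members, lists and tests were chosen with earlier results of these data known. Named genes were the 10 members, genes of the ratios, the highest, lowest and called genes of each list, and the 3 nearest profiles to *hsp-6*, *hsp-60* and *atfs-1*, with *hsp-4*, *C30H6.9*, *hsp-16.1*, *hsp-16.48*, *hsp-16.49* and *cyp-14A4* added after their values were seen. *daf-21* and *opt-2* were not matched by name. Counts of *timm-23* in 4 libraries, *clpp-1* in 11, and *lonp-1* and *ubl-5* in all 12 were not whole.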

Additional observations from a re-analysis of the deposited data

How the results depend on the processing

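The fold changes of *hsp-6* and *hsp-60* and all 6 ratios kept their direction under every alternative run. Of the ratios, only *hsp-6* over *hsp-60* and *hsp-60* over *atp-2* passed an adjusted p under 0.05 in the unpaired permutation test of all 12 libraries. Depth limited mainly *haf-1*, and the direction of 5 other members depended on the scaling. With library size only, log2(TPM + 1) and log2(TPM + 0.1), the number of members called lower was 0, 0 and 0, of members higher at an adjusted p under 0.05 it was 3, 4 and 4, of members lower 2, 2 and 2, and the median of the members was 0.037, 0.20 and 0.21. Of all 15266 tested genes, 1747, 1244 and 1593 were called lower, 9050, 10060 and 10043 were higher, and 3021, 2633 and 2627 were lower. Under the same 3 settings *dnj-10* was at 0.12, 0.28 and 0.30, *clpp-1* at 0.092, 0.40 and 0.41, and *atfs-1* at 0.23, 0.36 and 0.37. *timm-23* was at 0.12 and 0.12 and *lonp-1* at 0.089 and 0.093 on the 2 TPM scales. The median of the other outputs of ATFS-1 was 0.26 with library size only and 0.32 with log2(TPM + 1), and that of the chaperones outside mitochondria 0.0018 and 0.13. The median of all genes moved in the same direction, to 0.50 with library size only, 0.51 with log2(TPM + 1) and 0.64 with log2(TPM + 0.1). Higher genes made up 43.7% of all calls under TMM, 68.0% under library size only and under log2(TPM + 1), and 74.1% with log2(TPM + 0.1). With at least 10 counts in every library, 12400 genes were tested in place of 15266, and 2210 were called in place of 4228, a larger fall in calls than in genes tested.

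With each library left out in turn, 6 to 8 members were lower, 1 was called lower, and their median was -0.43 to -0.36. Of the 15410 to 15486 genes tested in these fits, 4696 to 5070 were lower and 2281 to 2520 were called lower. The log2 ratio of *hsp-6* to *dnj-10* was -0.58 to -0.31, of *lonp-1* to *clpp-1* -0.20 to -0.12, of *atfs-1* to *dve-1* -0.39 to -0.23 and of *hsp-6* to *hsp-1* -0.15 to -0.091.

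The replicate numbers did not pair the libraries. The correlations of same-numbered libraries' deviations were -0.277 to 0.433, and 1 of 6 numbers matched itself best. With a replicate block 4264 of 15266 tested genes were called, 2356 of them lower, and 4809 were lower at an adjusted p under 0.05. Of the members, 7 were lower by that rule, 1 of them called. In the paired form of the ratio test, 0.70 for *hsp-6* over *hsp-60* and -0.30 for *hsp-60* over *atp-2* each had an exact p of 0.0312, the smallest that 6 pairs can give, and an adjusted p of 0.0625.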
